A study of Mus musculus with 16 samples.

Results

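Complement and coagulation proteins are plasma proteins that the liver makes, and their transcripts were followed here in livers of fed and fasted mice. The mice ate a control diet, CD, or one high in fat, HFD. Members were 37 genes chosen by name for their place in the clotting, fibrinolytic and complement pathways. Members and the other gene lists were chosen with earlier results of these data known. Shares of a list set beside those of all genes are therefore descriptions and not tests. A row of the count table was assigned to a member through its Ensembl identifier. The identifiers of 36 members matched a row, out of 46078 genes in the table, and all 36 passed the filter on low counts that left 15075 genes for testing. Klkb1, the gene of plasma prekallikrein, had no matching row, so its transcript level was not analysed here and it enters only the search of upstream sequences.

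Clotting is a cascade of serine proteases that circulate as inactive precursors. Each is activated by the protease before it, the last step being the cut of fibrinogen by thrombin into fibrin, while plasmin dissolves the clot and serpins and the protein C system hold the cascade back. Complement runs on similar proteases. The classical, lectin and alternative routes meet at C3, and the terminal components C5 to C9 assemble into a pore in a target membrane. Hepatocytes are the main source of most of these proteins in plasma, and several are acute phase proteins whose synthesis changes with inflammation.

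The 4 groups were CD fed, CD fasted, HFD fed and HFD fasted, with 4 liver libraries in each. All mice were males of the strain given as C56B6/J in the labels, were 8 weeks old when the diets began and had spent 16 weeks on the diet. The HFD supplied 60% of calories from fat, fed mice ate ad libitum and fasted mice went 16 h without food. No transgene or treatment other than diet and fasting was named for these libraries. The labels number the libraries within a group and do not state that each came from a different mouse, so the p-values measure the spread between these libraries.

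Each library was poly(A)-selected RNA sequenced as paired reads, and the values used were whole-number read counts per gene. Total counts ran from 41364448 to 57583153 per library, with the CD fed libraries (55415835 to 57583153) above those of the other groups (41364448 to 53982285). Levels are CPM, a gene's count relative to the library's total, which was first adjusted with edgeR's TMM factor for differences in RNA composition. A count of 3 corresponded to between 0.0536 and 0.0768 CPM. The hepatocyte markers Alb, Apoa1, Ttr, Cps1, Serpina1c and Tat summed to between 71360 and 138300 CPM in all libraries. HFD fed replicate 3 stood lowest of its group for 25 of the 36 members and highest for none, so diet results in fed mice are also given without it. This was counted over members only, and whether the library stood low for genes in general was not examined.

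Genes of several components lie side by side, and the upstream sequences of the fibrinogen trio and of a pair of C8 genes are shown because these neighbours could be compared for shared changes. On chromosome 3, Fgg (83007724-83015049, plus strand) and Fga (83026076-83033627, plus strand) are 11026 bases apart, and Fgb (83040141-83049863, minus strand) follows 6.5 kb further. On chromosome 4, C8b (104766317-104804548, plus strand) and C8a (104815679-104876398, minus strand) end 11.1 kb from each other. Coordinates are of GRCm38. Each line below gives 200 bases before the RefSeq transcript start (GRCm38.p6), 5′ to 3′ on the gene's strand, and capitals mark a match to GTTAAT (a half-site of HNF1), TTGCNNAA (a C/EBP-type motif) or TTCNNNGAA (a STAT-type motif) on either strand.
Fga (chr3:83025953-83026152): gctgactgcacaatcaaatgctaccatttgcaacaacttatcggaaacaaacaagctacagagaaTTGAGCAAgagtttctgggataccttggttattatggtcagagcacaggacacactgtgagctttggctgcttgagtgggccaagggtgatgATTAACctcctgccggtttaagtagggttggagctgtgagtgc
Fgb (chr3:83049864-83050063): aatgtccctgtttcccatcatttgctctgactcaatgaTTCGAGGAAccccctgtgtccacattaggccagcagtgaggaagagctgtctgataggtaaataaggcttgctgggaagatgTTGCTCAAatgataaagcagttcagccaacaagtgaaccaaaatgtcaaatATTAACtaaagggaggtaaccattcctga
Fgg (chr3:83007524-83007723): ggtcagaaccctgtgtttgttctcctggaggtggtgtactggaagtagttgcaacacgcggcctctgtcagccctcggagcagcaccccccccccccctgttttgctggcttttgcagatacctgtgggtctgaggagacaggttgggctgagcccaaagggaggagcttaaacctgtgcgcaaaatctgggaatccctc
C8a (chr4:104876399-104876598): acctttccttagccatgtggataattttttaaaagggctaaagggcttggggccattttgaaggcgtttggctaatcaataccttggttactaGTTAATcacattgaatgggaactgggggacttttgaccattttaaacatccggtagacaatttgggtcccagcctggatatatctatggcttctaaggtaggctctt
C8b (chr4:104766117-104766316): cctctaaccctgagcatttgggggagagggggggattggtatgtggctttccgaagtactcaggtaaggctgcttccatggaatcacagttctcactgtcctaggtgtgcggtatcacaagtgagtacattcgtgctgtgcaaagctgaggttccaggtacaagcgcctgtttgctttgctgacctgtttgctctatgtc

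Fga and Fgb each held a GTTAAT and a TTGCNNAA match, at bases -43 and -135 in Fga and at -29 and -80 in Fgb, counted from the RefSeq start to the first base of the match. Fgb also held a TTCNNNGAA match at -162, C8a held GTTAAT at -107, and neither Fgg nor C8b held any of these letters. The RefSeq start of Fga lies downstream of the start of its GRCm38 gene model, so its window includes bases of the annotated gene. Of the 29 members with an upstream entry, Klkb1 among them, 7 (24.1%) held GTTAAT, 7 (24.1%) held TTGCNNAA and 4 (13.8%) held TTCNNNGAA. Among all 32505 upstream entries of the same length these letters occurred in 5.09%, 7.5% and 5.51%. The HNF4-type letters CAAAGTCCA were found in none of the 29 and in 0.32% of all entries. The GTTAAT matches were in F13b, Fga, Fgb, C1ra, C4bp, Hc and C8a. Like that of Fga, the windows of F13b, C1ra, C4bp and Hc include bases of the annotated gene, and that of C1ra lies wholly inside it. A match is a string in this window and was not tested as a binding site.

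Fasting on the control diet lowered more members than it raised. Transcripts of the 3 fibrinogen chains, of factors X and XI, of antithrombin, of the proteases C1r, C1s and MASP-1, of mannose-binding lectin C and of the terminal components C6, C8α and C9 fell, as did C4bp, the inhibitor of C4b. Pros1 (protein S) and C3 rose. In all 16 of 36 members passed an adjusted p of 0.05 (edgeR's quasi-likelihood test, adjusted over all genes), or 44.4%, 2 higher and 14 lower, against 25.2% of all genes tested. Members had high counts, the fewest being those of Cfb with a mean of 1312 per library, and among the 4466 genes at or above that count 34.4% passed. The median log2 fold change was -0.25 over the members and -0.01 over all genes, and 30 of 36 members had a negative value. Libraries of the CD fed and CD fasted groups did not overlap for 18 members, 17 of them lower on fasting, while 25.4% of all genes showed no overlap.

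On the HFD, fasting moved fewer members past the threshold. Mbl2, C6 and F11 fell, and C4b and Masp2, which encode complement C4 and a lectin pathway protease, rose. The 5 members called were 13.9% of the 36, against 8.86% of all genes and 12.2% of genes at or above the count of Cfb, a share close to that of the members. The median over the members was -0.02 on the log2 scale with 17 positive and 19 negative values, which became 0.02 with 22 positive and 14 negative when libraries were scaled by total count instead of TMM.

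The change with fasting differed between diets for C4b (0.83 ± 0.16, adjusted p = 0.0177) and C4bp (0.50 ± 0.12, adjusted p = 0.0468), both as the log2 change in HFD minus that in CD, with its standard error after ±. These were 2 of 36 members (5.56%), against 2.59% of all genes tested and 4.05% of those at or above the count of Cfb. The C4bp call was lost in 14 of 16 fits without a library, with DESeq2 size factors (adjusted p = 0.0506) and with no filter on low counts (0.0852), where C4b was the 1 member called. The interaction was positive for 30 of 36 members, with a median of 0.24 over the members and -0.00153 over all genes. Scaling by total count gave 33 positive members and a median of 0.33, with 0.09 over all genes. For the other 34 members a difference in fasting response between diets was not detectable at this threshold in the edgeR fit reported here. DESeq2 also called Kng1 (7.74% of all genes called) and scaling by total count also called Masp1 (2.92%). With the replicate number as a block C2 was called and C4bp was not (2.38%). A call on 1 diet alone therefore does not show a diet-specific response.

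**Figure D1:**
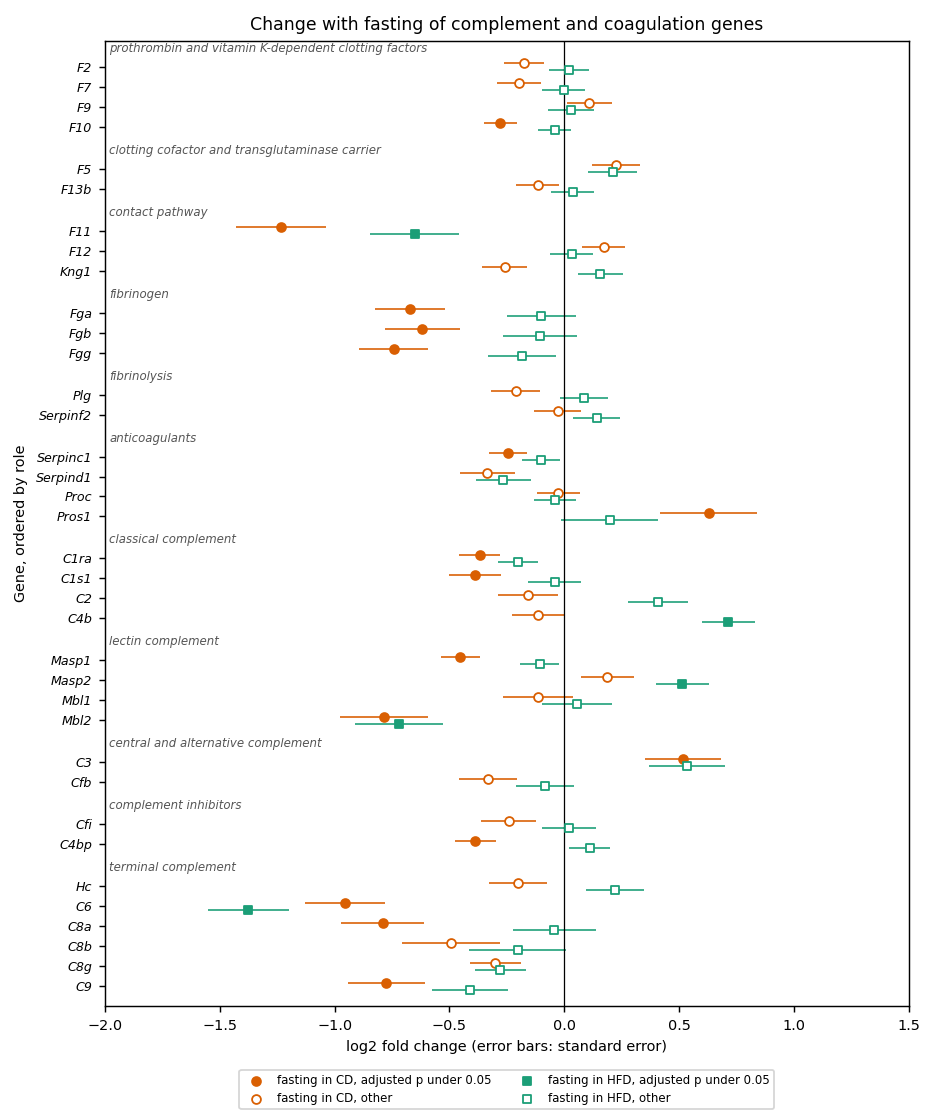
Log2 fold change with fasting for the 36 members, ordered by role, on CD (circles) and HFD (squares), with standard errors of edgeR's quasi-likelihood fit. Filled symbols passed an adjusted p of 0.05, which was 16 members on CD and 5 on HFD, and the fibrinogen and terminal complement groups lie left of 0 on CD.

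In fed mice the HFD group was lower than the CD group for each member that passed the test. These were F10, Kng1 (kininogen), Fga, Fgg, Serpinf2 (α2-antiplasmin), Serpinc1 (antithrombin), C1ra, C2 and C8b. The 9 members were 25% of the 36, against 7.5% of all genes tested, and against 10.7% of genes at or above the count of Cfb. The median log2 fold change was -0.24 over the members and 0.01 over all genes, and 32 of 36 members were negative. No overlap between the CD fed and HFD fed libraries was seen for 18 members, each lower on HFD, compared with 15.7% of all genes.

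Without HFD fed replicate 3 the count in fed mice fell to 4 members (F10, Kng1, Serpinf2 and C8b), with a median of -0.20 and 30 negative values, while the share of all genes called fell from 7.5% to 3.7%. Without CD fed replicate 1 it was also 4 members (F10, Kng1, Serpinf2 and Serpinc1), with 4.86% of all genes called. The CD fed libraries entered both the fasting comparison on CD and the diet comparison in fed mice, so values of like sign in those comparisons share their reference samples.

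In fasted mice the diets differed for 3 members. C4b and C4bp were higher on HFD, and F12 (factor XII) was lower. That was 8.33% of the 36 against 7.7% of all genes and 11.8% of genes at or above the count of Cfb. The median over members was -0.00481 on the log2 scale, with 18 positive and 18 negative values. Scaling by total count shifted the median of all genes from 0.01 to 0.17 and gave 26 positive and 10 negative members. In that fit 6 members were called higher and none lower. It called 13.9% of all genes, and 88.1% of all its calls were higher. In the TMM-scaled fit 12 members had an unadjusted p under 0.05. Without HFD fasted replicate 3 none of the 36 passed, and 3.61% of all genes did.

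**Figure D2:**
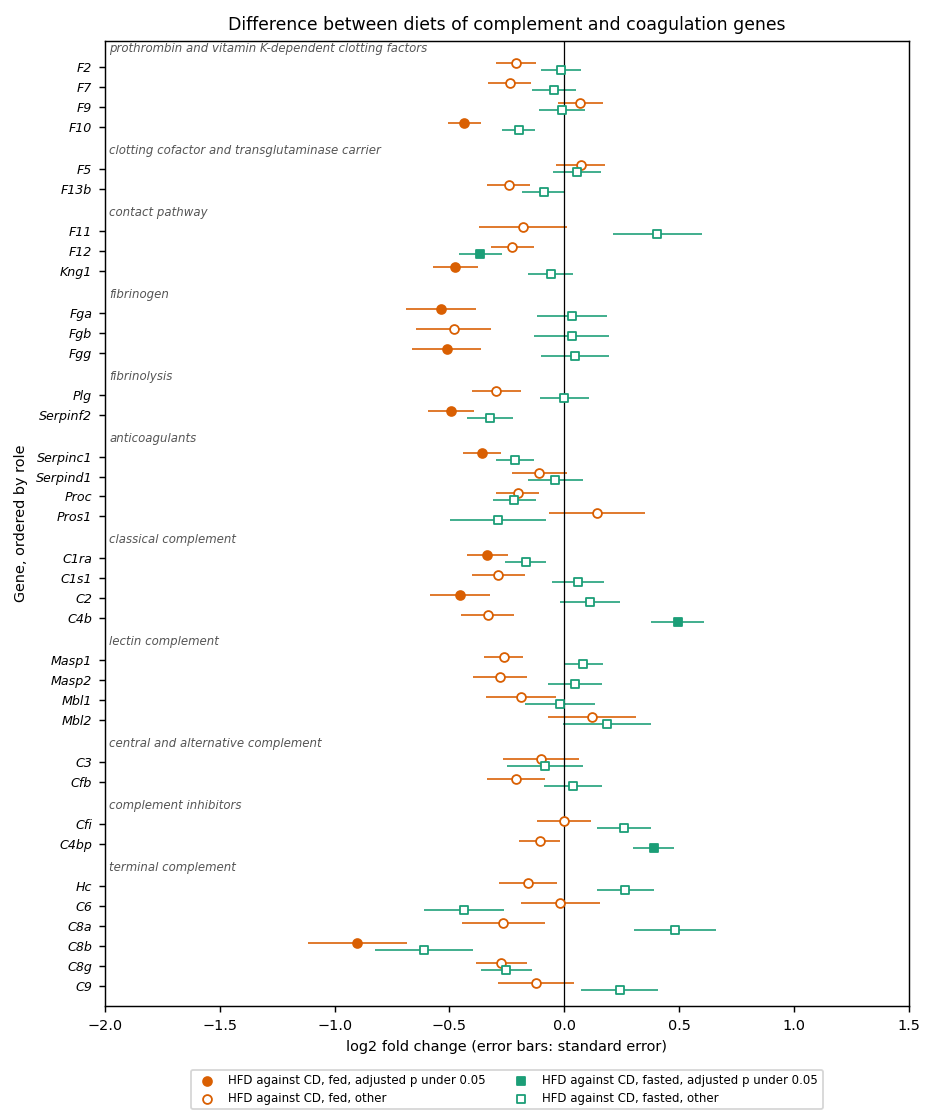
Log2 difference between HFD and CD for the 36 members in fed mice (circles) and in fasted mice (squares), with standard errors. In fed mice 32 of 36 points lie below 0 and 9 are filled, whereas in fasted mice 18 lie on each side and 3 are filled.

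Among the vitamin K-dependent clotting factors, F10 was lower in each other group than in CD fed. F10, the protease that turns prothrombin into thrombin, stood at 433, 463, 419 and 443 CPM in the CD fed libraries and at 349.7, 363, 381 and 356 CPM in the CD fasted ones. On HFD it was at 317, 336, 295 and 352 CPM when fed and 325, 331, 312 and 295 CPM when fasted. Every CD fed library lay above every other library. The log2 fold change was -0.28 ± 0.07 (adjusted p = 0.0119) with fasting on CD and -0.44 ± 0.07 (adjusted p = 0.00262) with HFD in fed mice, and it passed in all 16 fits that left out a library in both comparisons. With fasting on HFD it was -0.04 ± 0.07 (adjusted p = 0.752).

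The other vitamin K-dependent clotting factors, F2, F7 and F9, passed in no comparison of the edgeR fit. DESeq2 called F2 lower with HFD in fed mice. F2 (prothrombin) ranged from 1398 to 1872 CPM over the 16 libraries, F7, which starts the tissue factor route, from 66.3 to 93.4 CPM, and F9, the haemophilia B factor, from 151.8 to 214.6 CPM. Their log2 values with fasting on CD were -0.18 ± 0.09, -0.20 ± 0.09 and 0.11 ± 0.10. F7 ends 1.5 kb before F10 on chromosome 8 on the same strand, and its HFD value in fed mice was -0.24 ± 0.09 (adjusted p = 0.139). The cofactor F5 had a log2 change of 0.23 ± 0.10 (adjusted p = 0.128) with fasting on CD and 0.21 ± 0.10 (adjusted p = 0.223) on HFD. F13b, the carrier subunit of the fibrin-crosslinking transglutaminase, lay between -0.24 and 0.15 in all comparisons.

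Of the contact pathway, in which factor XII activates factor XI with kininogen as a carrier, F11 fell with fasting on both diets. It was at 90.7, 64.5, 54.2 and 88.7 CPM in CD fed livers and 34.9, 25.0, 31.6 and 35.1 CPM in CD fasted livers. On HFD the values were 53.7, 91.5, 52.1 and 65.9 CPM fed and 33.8, 46.5, 43.4 and 44.0 CPM fasted. The fed libraries lay above the fasted ones on each diet. The fall on CD was to 0.425 of the fed level (log2 -1.24 ± 0.20, adjusted p = 0.000428) and was the largest of any member on that diet. The HFD fall was -0.65 ± 0.19 (adjusted p = 0.0475), a call that 12 of 16 fits lacking a library lost (up to 0.146 in the absence of HFD fed replicate 2). The 2 falls were not shown to differ (interaction 0.58 ± 0.27, adjusted p = 0.244).

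Kng1 and F12 differed between diets. Kng1 stood at 2083, 1919, 1904 and 1839 CPM in CD fed livers and at 1451, 1384, 1188 and 1548 CPM in HFD fed livers, with no overlap. The fasted values were 1480.2, 1763, 1652 and 1576 CPM on CD and 1479.7, 1479, 1582 and 1674 CPM on HFD, which overlapped. Its HFD difference was -0.48 ± 0.10 (adjusted p = 0.0091) in fed mice and -0.06 ± 0.10 (adjusted p = 0.748) in fasted mice. Kng1 has a close copy, Kng2, 28.4 kb away, and how reads that fit both were counted is not given in the sources used here.

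F12 was at 497, 536, 475 and 537 CPM in CD fed, 510.4, 676, 539 and 577 CPM in CD fasted, 438, 434, 421 and 456 CPM in HFD fed and 495, 450.2, 438 and 405 CPM in HFD fasted livers. HFD libraries lay below CD libraries in both states. The difference was -0.23 ± 0.09 (adjusted p = 0.156) in fed and -0.37 ± 0.09 (adjusted p = 0.0274) in fasted mice. The fasted call was lost when CD fasted replicate 2 (adjusted p = 0.0708), HFD fasted replicate 3 (0.0724) or HFD fasted replicate 4 (0.0862) was left out, and with scaling by total count it was -0.21 (adjusted p = 0.115).

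The 3 fibrinogen chains fell together with fasting on CD. Fga encodes the Aα chain, Fgb the Bβ chain and Fgg the γ chain, and a fibrinogen molecule holds a pair of each. Fga stood at 7208, 4864, 4714 and 5990.2 CPM in CD fed livers, 4144, 2846, 3898 and 3424 CPM in CD fasted, 4077, 3969, 3599 and 4055 CPM in HFD fed and 3309.8, 3289.8, 4059 and 3988 CPM in HFD fasted livers. Fgb was at 5824, 3854, 3883 and 5200.2 CPM in CD fed, 3654, 2418, 3339 and 2809 CPM in CD fasted, 3498, 3512, 2770.2 and 3661 CPM in HFD fed and 2881, 2959.7, 3066 and 3589 CPM in HFD fasted livers. The highest CD fed values of both belonged to replicates 1 and 4, and no CD fed library overlapped another group. These replicates were the 2 highest CD fed libraries for 14 of the 36 members, and this was not counted over all genes.

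Fgg was at 4434, 2972, 3249.6 and 3983 CPM in CD fed livers and 2591, 1753, 2398 and 2015 CPM in CD fasted livers. The HFD livers held 2754, 2737, 2173 and 2599.6 CPM fed and 2074, 2092, 2386 and 2486 CPM fasted. With fasting on CD the log2 changes were -0.67 ± 0.15 (adjusted p = 0.00511) for Fga, -0.62 ± 0.16 (adjusted p = 0.0124) for Fgb and -0.74 ± 0.15 (adjusted p = 0.00248) for Fgg, each kept in all 16 fits without a library. On HFD they were -0.10 ± 0.15, -0.11 ± 0.16 and -0.18 ± 0.15, and none passed. The interactions were 0.57 ± 0.21, 0.51 ± 0.23 and 0.56 ± 0.21, with adjusted p from 0.153 to 0.226, so the responses on the diets were not shown to differ.

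In fed mice the HFD values of the fibrinogen chains were -0.54 ± 0.15 (adjusted p = 0.043) for Fga, -0.48 ± 0.16 (adjusted p = 0.084) for Fgb and -0.51 ± 0.15 (adjusted p = 0.0493) for Fgg. The call of Fga was lost in 10 of 16 fits without a library (up to 0.123 without CD fed replicate 1) and that of Fgg in 12 of 16 (up to 0.144 without HFD fed replicate 3). Levels per kb of exon use the length of all annotated exons of a gene joined. The Fga to Fgb ratio of CPM per kb of exon was 1.54 ± 0.06 (SD, n = 4) in CD fed, 1.49 ± 0.04 in CD fasted, 1.49 ± 0.11 in HFD fed and 1.49 ± 0.13 in HFD fasted livers. The Fgg to Fgb ratio was 1.43 ± 0.06, 1.31 ± 0.01, 1.39 ± 0.07 and 1.32 ± 0.07 in the same order, and its CD fed libraries (1.39 to 1.52) did not overlap the CD fasted ones (1.29 to 1.32). An overlapping gene on the opposite strand of Fgg (Gm30097) is annotated.

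Of the fibrinolytic members, Serpinf2 was lower on HFD in fed mice, and Plg (plasminogen) did not pass. Serpinf2, the main inhibitor of plasmin, stood at 900.1, 849, 674 and 828 CPM in CD fed and 572, 641, 482 and 614 CPM in HFD fed livers. The fasted livers held 802, 818, 752 and 815 CPM on CD and 644, 644, 613 and 646 CPM on HFD. HFD libraries lay below CD libraries in both states. The difference was -0.49 ± 0.10 (adjusted p = 0.0091) in fed mice, kept in all 16 fits without a library, and -0.32 ± 0.10 (adjusted p = 0.062) in fasted mice. Fasting values were -0.03 ± 0.10 on CD and 0.14 ± 0.10 on HFD. Plg was at 1868 to 2671 CPM over all libraries, with a value of -0.30 ± 0.11 (adjusted p = 0.1) for HFD in fed mice.

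Among the anticoagulants, Serpinc1 was lower in each other group than in CD fed. Antithrombin, its product, blocks thrombin and factor Xa. It was at 2277, 2304, 2146 and 2109 CPM in CD fed, 1850.4, 1739, 1984 and 1881 CPM in CD fasted, 1759, 1705, 1672 and 1758 CPM in HFD fed and 1613, 1752, 1599 and 1466 CPM in HFD fasted livers. No other library reached the lowest CD fed value. The change with fasting on CD was small, -0.25 ± 0.08 (adjusted p = 0.0419), and its call was lost in 12 of 16 fits without a library (up to 0.101 without CD fed replicate 2). The HFD value in fed mice was -0.36 ± 0.08 (adjusted p = 0.0181), lost when CD fed replicate 2 (0.0615) was left out, and likewise HFD fed replicate 3 (0.0575).

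Pros1 encodes protein S, the cofactor of activated protein C. Its fasting change on CD was 0.63 ± 0.21 (adjusted p = 0.0389), the fed libraries lying at 46.0 to 59.9 CPM and the fasted ones at 53.0 to 119 CPM, with overlap. Leaving out CD fasted replicate 2, the highest library, lowered the change to 0.35 (adjusted p = 0.159), and the call was also lost without CD fed replicates 2 (0.0834), 3 (0.0856) or 4 (0.0905) or CD fasted replicate 4 (0.0882). Serpind1 (heparin cofactor II) had -0.34 ± 0.12 (adjusted p = 0.0517) with fasting on CD and -0.27 ± 0.12 (adjusted p = 0.176) on HFD. Proc (protein C) had values between -0.22 and -0.01 in all comparisons.

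**Figure D3:**
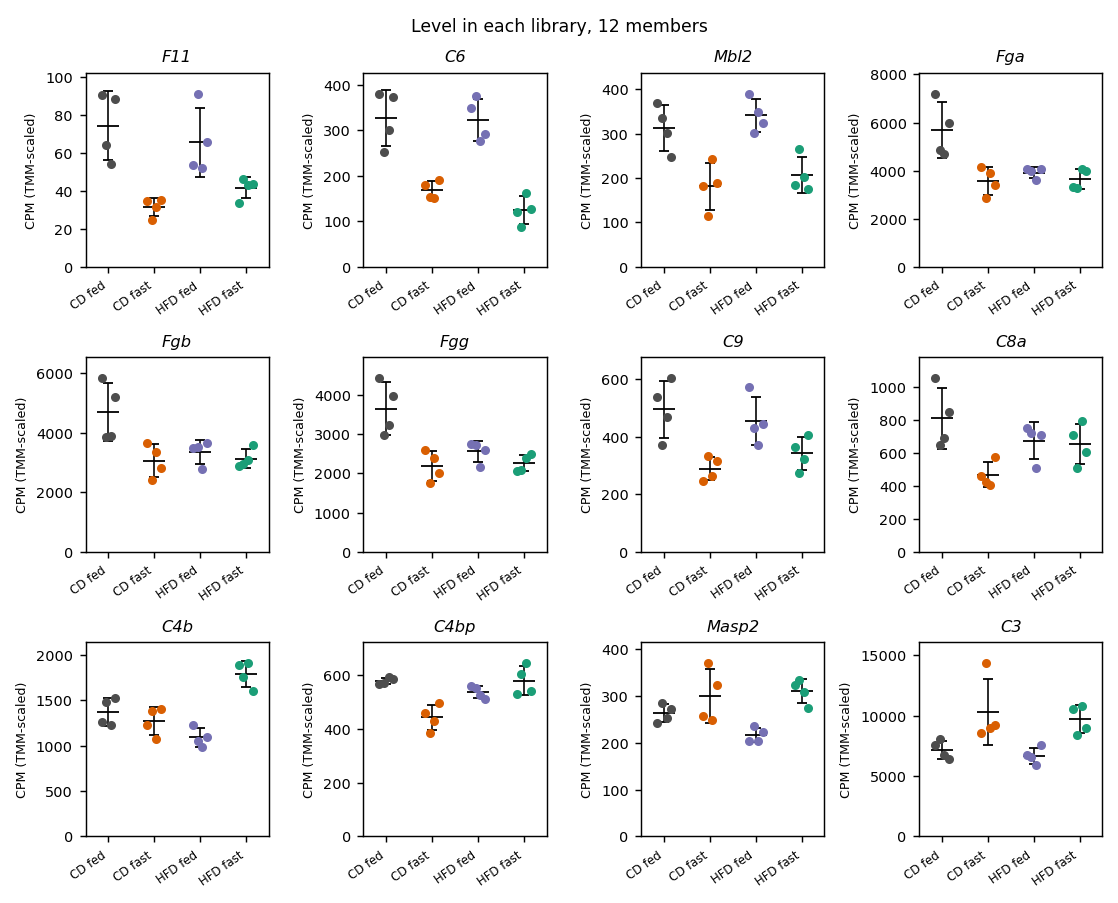
CPM of 12 members in each library, by group, with the group mean and SD (n = 4) as a bar. The CD fed points of Fga, Fgb and Fgg lie above those of the other groups, F11, C6 and Mbl2 are lower in fasted than in fed livers on both diets, and C4b is highest in the 4 HFD fasted libraries.

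The classical route starts with the protease C1r, which activates C1s, and C1s then cuts C4 and C2. C1ra and C1s1, which lie 6.9 kb apart on chromosome 6, fell with fasting on CD. C1ra was at 283, 289, 278 and 307 CPM in CD fed and 222, 210.3, 229 and 234 CPM in CD fasted livers, and at 240.0, 260.0, 213 and 204 CPM in HFD fed and 214, 213, 197 and 173 CPM in HFD fasted livers. C1s1 was at 582, 615, 656 and 652 CPM in CD fed and 487, 388, 510.1 and 528 CPM in CD fasted livers, and at 582, 527, 486 and 458 CPM in HFD fed and 460.4, 592, 486 and 456 CPM in HFD fasted livers. For both genes each CD fed library lay above each CD fasted library.

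The fasting changes on CD were -0.37 ± 0.09 (adjusted p = 0.00739) for C1ra and -0.39 ± 0.11 (adjusted p = 0.0213) for C1s1. The C1s1 call was lost without CD fed replicate 3 (0.0517), CD fed replicate 4 (0.0507) or CD fasted replicate 2 (0.0648). On HFD they were -0.20 ± 0.09 and -0.04 ± 0.11, neither passing. C1ra was also lower on HFD in fed mice, -0.34 ± 0.09 (adjusted p = 0.0324), a call lost in 6 of 16 fits without a library (up to 0.102 without HFD fed replicate 3). The copies C1rb and C1s2 were filtered out as too low, and reads shared with them cannot be told apart here.

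C4b, which encodes complement C4, rose with fasting on HFD. It stood at 1258, 1487, 1225 and 1531 CPM in CD fed and 1229, 1381, 1069.8 and 1407 CPM in CD fasted livers. Its HFD values were 1226, 1055, 989 and 1097 CPM fed and 1888, 1758, 1915 and 1602 CPM fasted. The 4 HFD fasted libraries lay above all 12 others. Fasting raised it 1.64-fold on HFD (0.71 ± 0.12, adjusted p = 0.00222), and the value on CD was -0.11 ± 0.11 (adjusted p = 0.502). In fasted mice the HFD group was higher by 0.49 ± 0.11 (adjusted p = 0.0192), a call lost without HFD fasted replicate 3 (0.0581). The interaction stayed under 0.05 in all 16 fits without a library.

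C4a, the neighbouring near-identical copy 65.2 kb away, has a row of its own. It had at most 97.0 CPM in any library over 6206 bases of exon, while C4b, with 5695 bases of exon, had 989 to 1226 CPM in HFD fed and 1602 to 1915 CPM in HFD fasted livers. How reads that fit both copies were counted is not given in the sources used here, so their values are uncertain. C2, the protease that C1s cuts, was at 29.7 to 36.2 CPM in CD fed and 18.0 to 27.1 CPM in HFD fed livers, a difference of -0.45 ± 0.13 (adjusted p = 0.0473) that was lost in 12 of 16 fits without a library (up to 0.131 without HFD fed replicate 3). C2 lies 85 bases from Cfb, and Gm20547 is annotated across both on the same strand. How reads that fit Gm20547 and either gene were counted is not given in the sources used here. The levels of C2 and Cfb, and the threshold set by the count of Cfb, are therefore uncertain.

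In the lectin route, mannose-binding lectins recognise microbial sugars and carry the proteases MASP-1 and MASP-2. Mbl2 fell with fasting on both diets. It was at 369, 334, 301 and 247 CPM in CD fed and 181, 114, 243 and 188 CPM in CD fasted livers, and at 389.9, 300.1, 348 and 325 CPM in HFD fed and 184, 265, 202 and 176 CPM in HFD fasted livers. Fed and fasted libraries did not overlap on either diet. The changes were -0.78 ± 0.19 (adjusted p = 0.00831) on CD and -0.72 ± 0.19 (adjusted p = 0.0317) on HFD. The HFD call was lost without HFD fed replicates 1 (0.0970) or 3 (0.0681) or HFD fasted replicates 1 (0.0840), 3 (0.0767) or 4 (0.0762). Mbl1, the other lectin, had -0.12 ± 0.15 and 0.06 ± 0.15 and did not pass.

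Masp1 and Masp2 moved in different comparisons. Masp1 was at 87.6, 94.1, 86.9 and 93.6 CPM in CD fed and 62.0, 63.9, 63.9 and 74.8 CPM in CD fasted livers, with no overlap, and at 81.2, 76.2, 73.3 and 70.8 CPM in HFD fed and 67.0, 81.4, 70.0 and 61.7 CPM in HFD fasted livers. Its change with fasting was -0.45 ± 0.08 (adjusted p = 0.00145) on CD and -0.11 ± 0.08 (adjusted p = 0.455) on HFD. Masp2 was at 205, 236, 204 and 223 CPM in HFD fed and 323, 333, 308 and 274 CPM in HFD fasted livers, with no overlap, and at 242, 285, 253 and 273 CPM in CD fed and 256, 371, 249 and 323 CPM in CD fasted livers. Its change was 0.51 ± 0.12 (adjusted p = 0.0156) on HFD, lost without HFD fed replicate 1 (0.0573), and 0.19 ± 0.12 (adjusted p = 0.257) on CD. The interactions were 0.35 ± 0.12 (adjusted p = 0.124) for Masp1 and 0.33 ± 0.17 (adjusted p = 0.281) for Masp2. Tardbp overlaps Masp2 on the opposite strand.

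C3, where all routes meet, had a positive fasting value on both diets. The change was 0.52 ± 0.17 (adjusted p = 0.0321) on CD and 0.53 ± 0.17 (adjusted p = 0.0559) on HFD, and the interaction was 0.02 ± 0.23 (adjusted p = 0.977). The CD fed libraries held 6420.2 to 8032 CPM and the CD fasted ones 8571, 14376, 8945 and 9241 CPM, which did not overlap. On HFD the values were 5907 to 7546 CPM fed and 8406 to 10786 CPM fasted, also without overlap. Without CD fasted replicate 2, the highest library, the CD value was 0.31 (adjusted p = 0.110). The CD call was also lost without CD fed replicate 1 (0.0522), CD fed replicate 3 (0.0764) or CD fed replicate 4 (0.0866). The HFD change passed in 4 of 8 other settings, namely DESeq2, limma-voom, scaling by total count and a minimum of 1 CPM in 4 libraries. It passed in 1 of 16 fits without a library. By the mean over all 16 libraries C3 was the most abundant member per length, at 1645 CPM per kb of exon. In CD fed livers the group means of Fga (1892) and Fgg (1748) stood above that of C3 (1397). In HFD fed livers Fga (1304) and C3 (1301) were close. Cfb (factor B of the alternative route) ranged from 20.8 to 34.1 CPM, with -0.33 ± 0.13 (adjusted p = 0.0672) on CD fasting. Gm20547 is annotated across Cfb on the same strand, so the count of Cfb is uncertain.

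Of the inhibitors, C4bp, which binds C4b and speeds its breakdown, fell with fasting on CD and not detectably on HFD. It was at 567, 572, 592 and 585 CPM in CD fed and 460.4, 386, 429 and 495 CPM in CD fasted livers. On HFD it was at 561, 553, 526 and 509.6 CPM fed and 531, 603, 645 and 540.3 CPM fasted. The CD fasted libraries were the lowest 4 of the 16. The change was -0.39 ± 0.09 (adjusted p = 0.00539) on CD and 0.11 ± 0.09 (adjusted p = 0.46) on HFD, and HFD exceeded CD in fasted mice by 0.39 ± 0.09 (adjusted p = 0.017), lost without HFD fasted replicate 3 (0.0592). The interaction was called in 2 of 16 fits without a library, reaching 0.0995 when HFD fasted replicate 3 was absent. Cfi, the protease that cuts C4b and C3b, had -0.24 ± 0.12 and 0.02 ± 0.12 with fasting and did not pass.

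Terminal components fell with fasting on CD for 3 of 6 members, and the other 3 had negative values. In that comparison 25.2% of all genes passed, and 34.4% of genes at or above the count of Cfb. C6, which joins C5b to start the pore, was at 381, 252, 300.2 and 373 CPM in CD fed and 179, 154, 150.4 and 190.4 CPM in CD fasted livers. The HFD libraries were at 348, 375, 277 and 291 CPM fed and 119.6, 88.0, 163 and 127 CPM fasted. No fed library overlapped a fasted one. C6 fell to 0.516 of the fed level on CD (-0.96 ± 0.17, adjusted p = 0.0012) and to 0.386 of it on HFD (-1.38 ± 0.18, adjusted p = 0.000469), both kept in all 16 fits without a library. The interaction was -0.42 ± 0.24 (adjusted p = 0.346).

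C8 is made of an α, a β and a γ chain. C8a stood at 1054, 645, 689.5 and 851 CPM in CD fed, 462, 425, 407 and 578 CPM in CD fasted, 752, 723, 508 and 712 CPM in HFD fed and 711, 509.8, 792 and 603 CPM in HFD fasted livers. C8b was at 387, 263, 291 and 362 CPM in CD fed, 222, 219, 189.5 and 296 CPM in CD fasted, 174, 231, 103 and 190.0 CPM in HFD fed and 164, 116, 177 and 149.7 CPM in HFD fasted livers. C8a separated CD fed from CD fasted without overlap, and C8b separated CD fed from HFD fed without overlap. Fasting on CD gave -0.79 ± 0.18 (adjusted p = 0.00543) for C8a and -0.49 ± 0.21 (adjusted p = 0.102) for C8b. HFD in fed mice gave -0.27 ± 0.18 (adjusted p = 0.413) for C8a and -0.90 ± 0.21 (adjusted p = 0.0199) for C8b, the latter lost without CD fed replicate 1 (0.0551). C8g, on another chromosome, had values from -0.30 to 0.02 and did not pass.

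C9, the subunit that polymerises into the pore, was at 537, 372, 468 and 604 CPM in CD fed and 247, 332, 263 and 315 CPM in CD fasted livers, with no overlap. In HFD livers it was at 572, 430.1, 371 and 445 CPM fed and 365, 275, 322 and 406 CPM fasted, with overlap. Its change was -0.77 ± 0.17 (adjusted p = 0.00386) on CD, kept in all 16 fits without a library, and -0.41 ± 0.17 (adjusted p = 0.135) on HFD. Hc, which encodes C5, had -0.20 ± 0.13 (adjusted p = 0.254) on CD and 0.22 ± 0.13 (adjusted p = 0.288) on HFD. Without CD fed replicate 1 the number of members called with fasting on CD was 15 (19.4% of all genes called), and without replicate 4 it was 12 (20.8%).

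In the edgeR fit 13 of the 36 members passed in no comparison. They were F2, F5, F7, F9, F13b, Plg, Serpind1, Proc, Mbl1, Cfb, Cfi, Hc and C8g. Their fitted log2 values lay between -0.34 (Serpind1) and 0.42 (Hc). DESeq2 called Serpind1 (adjusted p = 0.0304) and C8g (0.0418) lower with fasting on CD and F2 (0.0392) and Plg (0.0257) lower with HFD in fed mice, and limma-voom called Serpind1 (0.0428). Scaling by total count called Serpind1 (0.021), Cfb (0.0276) and C8g (0.0172) lower with fasting on CD and Cfi (0.0405) and Hc (0.0392) higher with HFD in fasted mice. A minimum of 1 CPM in 4 libraries called Serpind1 (0.0442) and C8g (0.0467), and a fit of only the CD groups called C8g (0.036), all lower with fasting on CD. With fasting on CD these fits called 26.3% (DESeq2), 24.5% (limma-voom), 24.4% (total count), 29.4% (minimum of 1 CPM) and 21.3% (CD groups only) of all genes. DESeq2 called 10.8% for HFD in fed mice, and total-count scaling 13.9% for HFD in fasted mice. The 23 others gave 33 calls over the 4 comparisons of groups, 27 lower and 6 higher. The comparisons share groups, so these are not separate results. Of all genes, 25.2% and 8.86% passed with fasting on CD and HFD, and 7.5% and 7.7% with HFD in fed and fasted mice. The members together took 4.05% ± 0.38 of counts in CD fed, 3.45% ± 0.15 in CD fasted, 3.43% ± 0.30 in HFD fed and 3.85% ± 0.24 in HFD fasted livers (SD, n = 4).

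**Figure D4:**
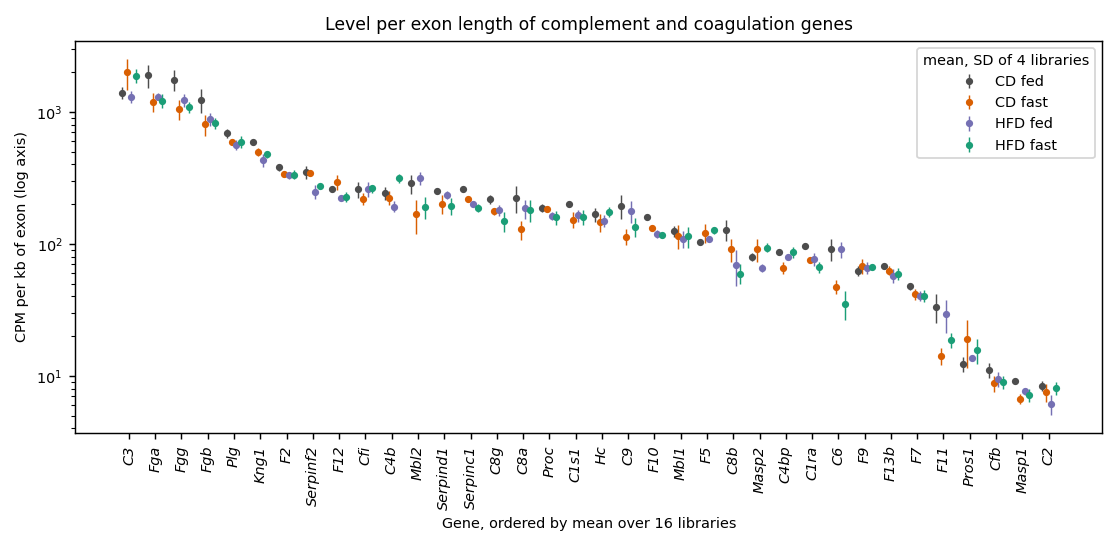
CPM per kb of exon (log axis) of the 36 members in each group, ordered by the mean over 16 libraries, with the SD of 4 libraries. C3 and the fibrinogen chains stand at the top, at means of 934 to 1645, and Masp1 and C2 at the bottom, at 7.68 and 7.51. The length is that of all annotated exons of a gene joined, 9833 bases for Masp1 and 3872 for C2, so the order depends on the annotation.

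A further 48 pathway genes were followed, 44 of which were tested. With fasting on CD 13 fell and none rose (20 had an unadjusted p under 0.05), which was 29.5% of them. On HFD 3 rose and 1 fell, in fed mice 2 were lower on HFD, in fasted mice 4 were higher and 1 lower on HFD, and 5 had a positive interaction. These were 9.09%, 4.55%, 11.4% and 11.4% of the 44, beside the shares of all genes given above.

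Cpb2, which encodes an inhibitor of fibrinolysis that trims fibrin, had the smallest adjusted p. It was at 292, 267, 282 and 289 CPM in CD fed and 173, 179.9, 172 and 205 CPM in CD fasted livers. On HFD it was at 222, 203, 181 and 202 CPM fed and 187, 217, 238 and 202 CPM fasted. Each CD fed library exceeded all others. The values were -0.63 ± 0.09 (adjusted p = 0.000166) for fasting on CD, -0.48 ± 0.09 (adjusted p = 0.00483) for HFD in fed mice and 0.69 ± 0.12 (adjusted p = 0.0132) for the interaction.

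Ggcx, the carboxylase that modifies vitamin K-dependent factors, was at 72.5 to 74.5 CPM in CD fed livers and fell to 43.2 to 50.5 CPM on fasting (-0.65 ± 0.11, adjusted p = 0.000562). Its value on HFD was -0.14 ± 0.11 (adjusted p = 0.446). Tfpi, the inhibitor of the tissue factor route, was at 6.20 to 7.38 CPM in CD fed livers and fell to 3.79 to 4.90 CPM on fasting (-0.70 ± 0.12, adjusted p = 0.0006). It was higher on HFD in fasted mice (0.61 ± 0.12, adjusted p = 0.0081). F8 (factor VIII), a product of endothelial cells in liver, had -0.46 ± 0.12 (adjusted p = 0.0127) on CD fasting and 0.76 ± 0.12 (adjusted p = 0.00464) for HFD in fasted mice. Their interactions were 0.79 ± 0.16 (adjusted p = 0.0223) and 0.80 ± 0.17 (adjusted p = 0.0264).

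**Figure D5:**
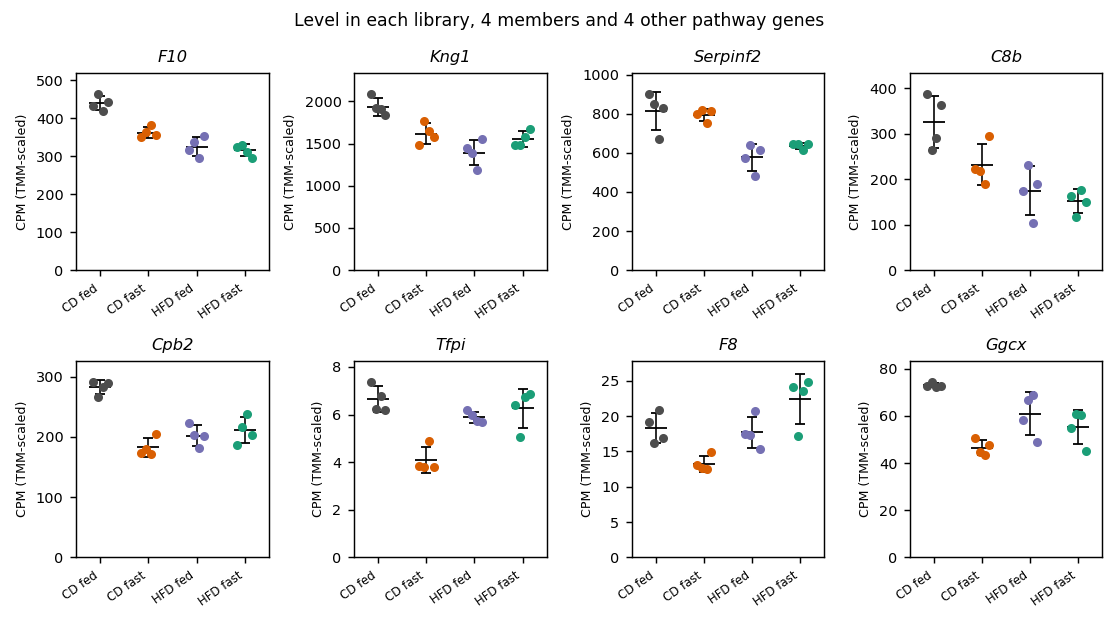
CPM of 4 members (F10, Kng1, Serpinf2 and C8b) and 4 other pathway genes (Cpb2, Tfpi, F8 and Ggcx) in each library, by group, with the group mean and SD (n = 4). For F10, Kng1, Serpinf2, C8b and Cpb2 each CD fed point lies above each HFD fed point, and Tfpi and F8 are lowest in CD fasted livers.

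C4a was at 23.8, 48.8, 97.0 and 91.2 CPM in CD fed and 19.6, 16.3, 13.1 and 26.3 CPM in CD fasted livers. It was at 86.8, 73.0, 76.2 and 60.5 CPM in HFD fed and 66.9, 94.0, 74.5 and 91.0 CPM in HFD fasted livers. CD fed replicates spread widely, 1 of them lying within the CD fasted range. The values were -1.79 ± 0.33 (adjusted p = 0.00144) for fasting on CD, 2.12 ± 0.34 (adjusted p = 0.00438) for HFD in fasted mice and 1.93 ± 0.46 (adjusted p = 0.0397) for the interaction. C1qa, a C1q chain made by macrophages, fell on CD (-0.70 ± 0.19, adjusted p = 0.0137).

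Regulators of complement on the cell surface or in plasma also moved. Cfhr2, a factor H-related gene, fell with fasting on both diets, -0.58 ± 0.11 (adjusted p = 0.00211) on CD and -0.81 ± 0.11 (adjusted p = 0.000987) on HFD. Cd55, which breaks up C3 convertases, fell on CD (-0.66 ± 0.12, adjusted p = 0.00142) and was lower on HFD in fed mice (-0.48 ± 0.12, adjusted p = 0.0287). Serping1 (C1 inhibitor) and Hrg (histidine-rich glycoprotein) rose with fasting on HFD, by 0.38 ± 0.09 (adjusted p = 0.018) and 0.50 ± 0.11 (adjusted p = 0.0133). On CD their values were 0.19 ± 0.09 (adjusted p = 0.133) and 0.29 ± 0.11 (adjusted p = 0.0629).

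Of 15 acute phase genes and their signalling partners, 6 were higher and 1 lower with fasting on CD, and 10 were higher and none lower with fasting on HFD. These were 46.7% of the list against 25.2% of all genes, and 66.7% against 8.86%. In fed mice 1 was higher and 2 were lower on HFD (20% against 7.5%). In fasted mice 4 were higher and none lower on HFD (26.7% against 7.7%), with all 15 values positive and a median of 0.49. Fgl1, a fibrinogen-like protein, rose by 1.80 ± 0.30 (adjusted p = 0.000656) on CD and 2.01 ± 0.30 (adjusted p = 0.00159) on HFD. Hp (haptoglobin) rose by 0.98 ± 0.17 (adjusted p = 0.000902) and 0.76 ± 0.17 (adjusted p = 0.0145), and Lcn2 by 3.36 ± 0.76 (adjusted p = 0.00494) and 2.90 ± 0.71 (adjusted p = 0.0211). Il1rn passed on CD (2.41 ± 0.41, adjusted p = 0.000656) and Orm2 on HFD (3.65 ± 0.66, adjusted p = 0.00468). Orm1 was lower on HFD in fed mice (-1.29 ± 0.26, adjusted p = 0.00869), rose with fasting on HFD (1.29 ± 0.26, adjusted p = 0.00875) and had an interaction of 1.47 ± 0.37 (adjusted p = 0.0452). The list summed to 7327 to 9350 CPM in CD fed, 9642 to 13480 in CD fasted, 7438 to 10440 in HFD fed and 11150 to 20040 in HFD fasted livers.

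Of 10 transcription factors and receptors known to act on liver plasma protein genes, Hnf4a fell with fasting on HFD (-0.55 ± 0.10, adjusted p = 0.00601) and had 0.02 ± 0.10 (adjusted p = 0.921) on CD. Esr1 rose with fasting on HFD (1.18 ± 0.34, adjusted p = 0.0433) and was lower on HFD in fed mice (-1.36 ± 0.34, adjusted p = 0.0262). None of the 10 passed with fasting on CD, where 2 had an unadjusted p under 0.05 and 25.2% of all genes passed. With fasting on HFD 2 of 10 passed (20%, against 8.86% of all genes). With HFD 1 of 10 passed in fed mice (10%, against 7.5%) and none in fasted mice (against 7.7%).

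Some marker lists of other liver cells moved with fasting on CD, where 25.2% of all genes passed. Macrophage markers fell for 3 of 7 genes, with all 7 negative, and their sum was 247.4 to 487 CPM in CD fed, 167.1 to 281.7 in CD fasted, 265 to 384.8 in HFD fed and 224.5 to 386.8 in HFD fasted livers. Endothelial markers fell for 2 of 5, summing to 198.1 to 223 CPM in CD fed and 147.3 to 193.6 in CD fasted livers, and stellate markers for 2 of 5, from 89.2 to 111 CPM in CD fed and 43.2 to 84.7 in CD fasted livers. In fasted mice, where 7.7% of all genes passed between diets, 2 of 5 endothelial and 1 of 5 stellate markers were higher on HFD, with sums of 178.8 to 235.9 and 90.8 to 131.5 CPM in HFD fasted livers. None of 7 macrophage and 6 blood cell markers passed there, with 6 positive values in each list, medians of 0.54 and 0.55 against 0.01 over all genes, and 4 and 1 with an unadjusted p under 0.05. Blood cell markers summed to 100.2 to 250.2 CPM in CD fasted and 158 to 312.4 CPM in HFD fasted livers. Of the cholangiocyte and blood cell markers, 0 of 4 and 0 of 6 passed with fasting on CD (1 of each had an unadjusted p under 0.05), with 3 and 4 positive values. No marker was at 0 in any library. Hepatocyte markers fell for 1 of 6 with fasting on CD, with a median of -0.10 and 3 negative values. With fasting on HFD 1 of 6 fell and all 6 were negative (median -0.56, 4 with an unadjusted p under 0.05), and in fasted mice 1 of 6 was lower on HFD and 5 were negative (median -0.42). Their sum was 105900 to 137700 CPM in CD fed, 88960 to 110200 in CD fasted, 110000 to 138300 in HFD fed and 71360 to 102700 in HFD fasted livers. The part of these cells in the member results, and in C1qa, F8 and Tfpi in particular, was not tested, and fewer cells of a type and less RNA per cell cannot be told apart in bulk tissue.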

How the data were processed

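Livers were sequenced as poly(A) libraries with 100 bp paired reads. Per the labels and the study's methods, the authors aligned reads with TopHat2 (2.0.11, library type fr-firststrand) to Ensembl GRCm38 with iGenomes transcript annotation and counted them per gene with featureCounts. The deposited values are raw counts, and the strand setting of the counting and the annotation's release are not given in the sources used here. Gene symbols and coordinates came from a GRCm38 annotation by Ensembl identifier (45143 of 46078 matched).

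Counts were fitted with edgeR 4.0.16 (R 4.3.3, quasi-likelihood F test, TMM scaling, filterByExpr) with 1 coefficient per group over all 16 libraries and 12 residual degrees of freedom. P-values were adjusted by Benjamini-Hochberg over all 15075 genes tested, with a threshold of 0.05. The ± after a log2 value is its standard error. Fasting is fasted against fed, and HFD is HFD against CD. The code was tested on simulated counts.

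Members and lists were chosen with earlier results of these data known. Members that passed in any comparison, at most the 20 with the smallest adjusted p, were given with every library, and up to 10 other pathway genes with a mean of at least 100 counts, 6 acute phase genes and 6 regulators were named likewise. C3, C2, Pros1 and Serpina10 fall outside that rule, and their values were chosen after being seen. Upstream motifs were searched in 200 bases. Alternatives were DESeq2 (1.42.0), limma-voom (3.58.1), other scaling and filters, the groups compared alone, a replicate block and each library left out.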

Additional observations from a re-analysis of the deposited data

Results flagged for a closer look

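In groups of 4 libraries, 1 library stood apart from the others for 8 of 144 member and group pairs, and chance gives about 5% of such pairs. Plg was at 2251 CPM in CD fed replicate 3, with the others at 2630 to 2671. Serpinf2 was at 612.7 CPM in HFD fasted replicate 3, with the others at 643.7 to 645.6. Serpind1 was at 522.1 CPM in HFD fasted replicate 2, with the others at 387 to 407.2. Masp1 was at 74.8 CPM in CD fasted replicate 4, with the others at 62.0 to 63.9. C3 was at 14376 CPM in CD fasted replicate 2, with the others at 8571 to 9241. Cfb was at 25.0 CPM in CD fed replicate 3 (others 32.6 to 34.1) and at 21.1 CPM in HFD fasted replicate 4 (others 26.4 to 27.5). C8a was at 508.4 CPM in HFD fed replicate 3, with the others at 711.8 to 752.2.

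The fasting response differed between the diets by the interaction test for 2 members and 5 other pathway genes, as the log2 change on HFD minus that on CD. These were 5.56% of members and 11.4% of the other pathway genes, against 2.59% of all genes and 4.05% of those at or above the lowest mean count of a member, that of Cfb. The C4bp call was lost in 14 of 16 fits without a library, which left 1 member, C4b. The differences were 0.83 for C4b, 0.50 for C4bp, 0.80 for F8, 0.79 for Tfpi, 0.69 for Serpina10 (protein Z-dependent inhibitor, adjusted p = 0.0495), 0.69 for Cpb2 and 1.93 for C4a. Each was positive. For C4b fasting gave a higher level on HFD, whereas for C4bp, F8, Tfpi, Serpina10, Cpb2 and C4a it gave a lower level on CD and no call on HFD.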

How the results depend on the processing

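The number of members called with fasting on CD stayed within 1.5 times the 16 reported under every alternative, from 12 to 18 when 1 library was left out. With fasting on HFD it was 2 to 6 when 1 library was left out (2 without HFD fed replicate 1, 3 without HFD fasted replicate 1, 3 or 4). In fed mice it was 14 with DESeq2, which called 10.8% of all genes, and 4 to 9 with 1 library left out (4 when CD fed replicate 1, or HFD fed replicate 3, was absent, and 5 when CD fed replicate 2 or 4, or HFD fed replicate 1, was). In fasted mice it was 7 with DESeq2 (12.5% of all genes called), 6 with scaling by total count (13.9%), 0 when only the groups compared were fitted (90 of 14446 genes, 0.623%, passed in that fit) and 0 to 5 with 1 library left out (0 without HFD fasted replicate 3, 5 without HFD fed replicate 3). For the interaction it was 3 with DESeq2 (7.74% of all genes called) and 3 with scaling by total count (2.92%). It was 1 with DESeq2's size factors in edgeR (2.7%), 1 with no filter on low counts (1.19%) and 1 to 2 with 1 library left out. With 1 library left out the share of all genes called was 18.7% to 26% for fasting on CD, 3.31% to 10% for fasting on HFD, 3.37% to 8.29% for HFD in fed mice, 3.51% to 8.9% for HFD in fasted mice and 0.963% to 3.01% for the interaction. The interaction uses all 4 groups, so fitting only the groups compared gave it no separate value. No called member changed sign, and the cause of these shifts was not tested. Total-count scaling moved the share of all calls that were higher from 54.4% to 44.3% for fasting on CD, 54% to 67.6% for fasting on HFD, 43.8% to 68.8% for HFD in fed mice, 39.6% to 88.1% for HFD in fasted mice and 47.4% to 69.5% for the interaction. The common coefficient of variation of 19.2% and 4 libraries a group limit what could be detected.

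By the labels, libraries of different groups share only a number. Their deviations from the group mean correlated above 0.1 in 8 of 24 same-number pairs, and 5 of 16 libraries correlated best with their own number. Same-number pairs ranged from -0.24 to 0.66, and pairs of other numbers from -0.37 to 0.39. The highest value was that of HFD fed replicate 4 with HFD fasted replicate 4, and its source was not tested. With the replicate number as a block, 14 members were called with fasting on CD, 5 with fasting on HFD, 8 with HFD in fed mice, 4 with HFD in fasted mice and 2 for the interaction, beside 26.2%, 9.55%, 8.01%, 8.56% and 2.38% of all genes. Calls lost with the block were Serpinc1 (adjusted p = 0.0615) and Pros1 (0.0549) for fasting on CD, F11 for fasting on HFD (0.061), Fgg for HFD in fed mice (0.0524) and C4bp for the interaction (0.0696). Calls gained were C2 for fasting on HFD (0.0152) and for the interaction (0.0334), and Serpinf2 for HFD in fasted mice (0.0338).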
